A study of Mus musculus with 10 samples.

Results

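Pdk4, Gas1, Ccng2, Cdkn1b, Txnip and Bcl6 are FoxO-linked and growth arrest genes, described here over 2 serum states and 3 RNA pools of primary mouse embryonic fibroblasts. Their members were taken as all probe sets whose platform annotation gives 1 symbol equal to one of these names. This gave 8 of 12422 ordinary probe sets on the array, for 6 of 8251 named genes, with a pair of probe sets each for Cdkn1b and Txnip. The cells came from embryos at e14.5 of genotype C57/BLACK6, ATF1 +/-, and every group carried this genotype, so no array has 2 intact copies of the disrupted gene. Cultures in high-glucose medium were starved for 48 h in 1% dialyzed fetal bovine serum (FBS) and then kept for 2 h in 10% FBS (serum-treated) or in 1% FBS (starved). Polyribosome RNA, from the part of a sucrose gradient holding mRNAs with more than 1 ribosome, had 2 serum-treated and 2 starved arrays. Undertranslated RNA, from the lighter part of the gradient (no ribosome, a subunit or 1 ribosome), also had 2 serum-treated and 2 starved arrays. Cytoplasmic RNA, taken without cycloheximide, had 1 serum-treated and 1 starved array. Gradient cultures received cycloheximide, which halts ribosomes on mRNA, at 100 ug/ml for 30 min. In every gradient group replicate 2 came from cultures given 4-thiouridine at 200 uM and 3H-cytidine at 1 uCi, and replicate 1 received neither. Each gradient array holds fractions mixed from several biological and technical replicates, so the p-values reflect only how far these arrays differ, which may be technical.

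FoxO transcription factors are held in check by growth factors: PI3K and the kinase Akt, switched on by serum, phosphorylate FoxO proteins and move them out of the nucleus. In starved cells FoxO proteins are nuclear and activate genes of cell cycle arrest and fuel use. Among the genes described here, Pdk4 encodes a kinase that shuts off pyruvate dehydrogenase and spares glucose, and Ccng2 encodes cyclin G2, an atypical cyclin that slows the cell cycle. Cdkn1b encodes the CDK inhibitor p27, and Bcl6 encodes a zinc finger repressor of transcription. Txnip encodes an arrestin-like protein that binds thioredoxin and limits glucose uptake, and is also a target of the glucose-sensing factors MondoA and ChREBP. Gas1 was isolated from growth-arrested fibroblasts and encodes a membrane-anchored protein that also acts as a Hedgehog co-receptor.

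Promoter sequences of the 6 genes were read from the RefSeq promoter table (build GRCm38.p6, 250 bases before to 50 bases after each start, 7 promoters in all since Bcl6 has a pair), because binding letters shared by members would be visible there. GTAAACA, the core FoxO binding element, was found on either strand in 1199 of 32851 promoters of the table (3.65%) and in that of Txnip, first base 121 bases before the start. CAAAACA, the forkhead core of insulin response sequences, was found in 6.28% of promoters and in that of Ccng2, 16 bases before the start. CACGTG, the E-box of carbohydrate response elements, was found in 7.15% of promoters and in 1 of the Bcl6 promoters, 60 bases before the start. Either forkhead motif was present in 2 of the 6 genes and in 9.63% of all promoters, and no motif overlapped another. The windows around these matches, upstream of the start and with the motif in capitals, lie at chr3:96557809-96557869 (plus strand, Txnip), chr5:93267530-93267572 (plus strand, Ccng2) and chr16:23988880-23988939 (minus strand, Bcl6).
Txnip: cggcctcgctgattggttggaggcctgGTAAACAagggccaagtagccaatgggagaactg
Ccng2: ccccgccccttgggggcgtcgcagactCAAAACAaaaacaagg
Bcl6: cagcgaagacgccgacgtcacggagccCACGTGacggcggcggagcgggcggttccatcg
The promoters of Pdk4, Gas1 and Cdkn1b and the other Bcl6 promoter hold none of these letters in this window. A match describes the sequence only, and these arrays did not measure binding.

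The deposited values are hybridization intensities. Background on an array was set at its brightest unspiked bacterial or yeast control (19 probe sets), and lay between 6.7 and 16.1. Median intensity was 45.3 to 54.25 on polyribosome arrays, 5.7 to 8.8 on undertranslated arrays and 19.1 to 19.2 on cytoplasmic arrays, and 43.4% to 73.5% of probe sets were above background. Scaled log2 levels below are log2(intensity + 1.5), quantile normalized over the 10 arrays, which forces every array to a common distribution. Undertranslated arrays varied more between replicates (median SD over probe sets 0.562 serum-treated and 0.337 starved) than polyribosome arrays (0.204 serum-treated and 0.2 starved). Fibroblast identity was borne out by 14 of 15 measured fibroblast markers being above background on all arrays. Of 12 macrophage markers, 5 (Lyz2, Tyrobp, Laptm5, Ctss and Cd14) were higher after serum in polyribosome and cytoplasmic RNA, 3 of the 12 were above background on all arrays, and Itgam on none. Summed macrophage marker intensity was 4234 to 5282 in serum-treated against 1396 to 1650 in starved polyribosome RNA, 875 against 404 in cytoplasmic RNA, and 104 to 222 against 116 to 125 in undertranslated RNA. Of 9 endothelial markers only Flt1 was called higher after serum, and it was above background on 5 of 10 arrays. Pecam1 and Eng, above background on all arrays, differed by 0.09 and 0.01. Summed endothelial intensity was 823 to 970 in serum-treated against 723 to 1013 in starved polyribosome RNA, and 361 against 365 in cytoplasmic RNA. Cdh5, Tie1 and the epithelial marker Epcam were above background on no array. The part of these cells in the members' changes was not tested, and in bulk RNA fewer cells of a type and less RNA per cell cannot be told apart.

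After 2 h of serum 3 of the members, Pdk4, Gas1 and Ccng2, were 2.99- to 3.37-fold lower in polyribosome and cytoplasmic RNA, and Bcl6 and 1 Txnip probe set had lower values without passing the test. The comparison asks how mRNA in use and in the cytoplasm responds to 2 h of serum. It was fitted with limma over 6 arrays, with pool as a term, and p-values were adjusted by Benjamini-Hochberg over 9316 probe sets that passed a filter on mean level. Of these, 62 were higher after serum (0.666%) and 21 were lower (0.225%) at an adjusted p under 0.05. The members, which were chosen with earlier results of these data known, contributed 3 of the 21 lower probe sets. In all, 6 of the 8 member probe sets passed the filter, for 5 of the 6 genes, and both Cdkn1b probe sets did not.

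Pdk4, the pyruvate dehydrogenase kinase, had intensities of 67.9 and 81.7 in serum-treated polyribosome RNA, against 428.2 and 256.8 in starved polyribosome RNA. In cytoplasmic RNA its intensity was 12.1 after serum, which was not above that array's background of 13.8, and 71.1 in starved cells. Every serum-treated value thus lay below every starved value of its pool. Pdk4 fell by 1.75 on the log2 scale (SE 0.20, limma adjusted p = 0.00886), a 3.37-fold lower level, and ranked 10 of 9316 by p.

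Gas1, the growth arrest gene, was bright on all 10 arrays. Its intensity was 2200.9 and 1550.0 in serum-treated polyribosome RNA, against 5255.7 and 3722.1 in starved polyribosome RNA, and 457.5 against 1706.7 in cytoplasmic RNA. The groups did not overlap in either pool. Serum-treated polyribosome RNA kept 41.9% and 41.6% of the starved intensity in replicates 1 and 2, so the replicates nearly coincide, while cytoplasmic RNA kept 26.8%. Gas1 fell by 1.69 on the log2 scale (SE 0.20, limma adjusted p = 0.00886), 3.23-fold.

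Ccng2, the atypical cyclin, had intensities of 187.4 and 124.3 in serum-treated polyribosome RNA, against 861.6 and 346.9 in starved polyribosome RNA. In cytoplasmic RNA it had 16.8 after serum and 90.1 in starved cells. The starved polyribosome replicates differed from each other by more than the serum-treated ones, yet the groups did not overlap. Ccng2 fell by 1.58 on the log2 scale (SE 0.26, limma adjusted p = 0.0305), 2.99-fold.

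Bcl6, the repressor, had intensities of 220.7 and 163.3 in serum-treated polyribosome RNA, against 781.7 and 341.6 in starved polyribosome RNA, and 63.4 against 250.1 in cytoplasmic RNA. Its difference was -1.25 (SE 0.24, limma adjusted p = 0.0534), which missed the threshold although no groups overlapped. With the replicate number, which marks thiouridine labelling, as a block in the fit, Bcl6 passed at an adjusted p of 0.0198.

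Txnip was read by probe sets that disagree. Probe set 160547_s_at had intensities of 143.3 and 130.5 in serum-treated polyribosome RNA, against 352.2 and 301.4 in starved polyribosome RNA, and 60.5 against 130.4 in cytoplasmic RNA. These groups did not overlap, and the difference of -0.88 (SE 0.17, limma adjusted p = 0.054) passed with the replicate block (adjusted p = 0.0338) but not without it. Probe set 160548_at had 87.8 and 63.5 in serum-treated polyribosome RNA, against 94.4 and 70.6 in starved polyribosome RNA, and 32.4 against 31.8 in cytoplasmic RNA. Its groups overlapped in polyribosome RNA and its difference was 0.03 (95% interval -0.38 to 0.45, limma adjusted p = 0.968). Over the 10 arrays the scaled levels of the Txnip pair correlated at r = -0.796, as a description of arrays that share pools and depth. The suffix _s marks a probe set that can match several transcripts, and no file pairs either with a probe sequence, so which one follows Txnip mRNA cannot be settled here.

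Cdkn1b (p27) was not measurable. Its probe set 100278_at lay between 0.9 and 4.4 and its probe set 161010_r_at between 0.3 and 11.6, and both were not above background on any of the 10 arrays. No fold is given for it, and its mean scaled levels of 1.92 and 2.29 lay under the filter level of 2.92.

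**Figure D1:**
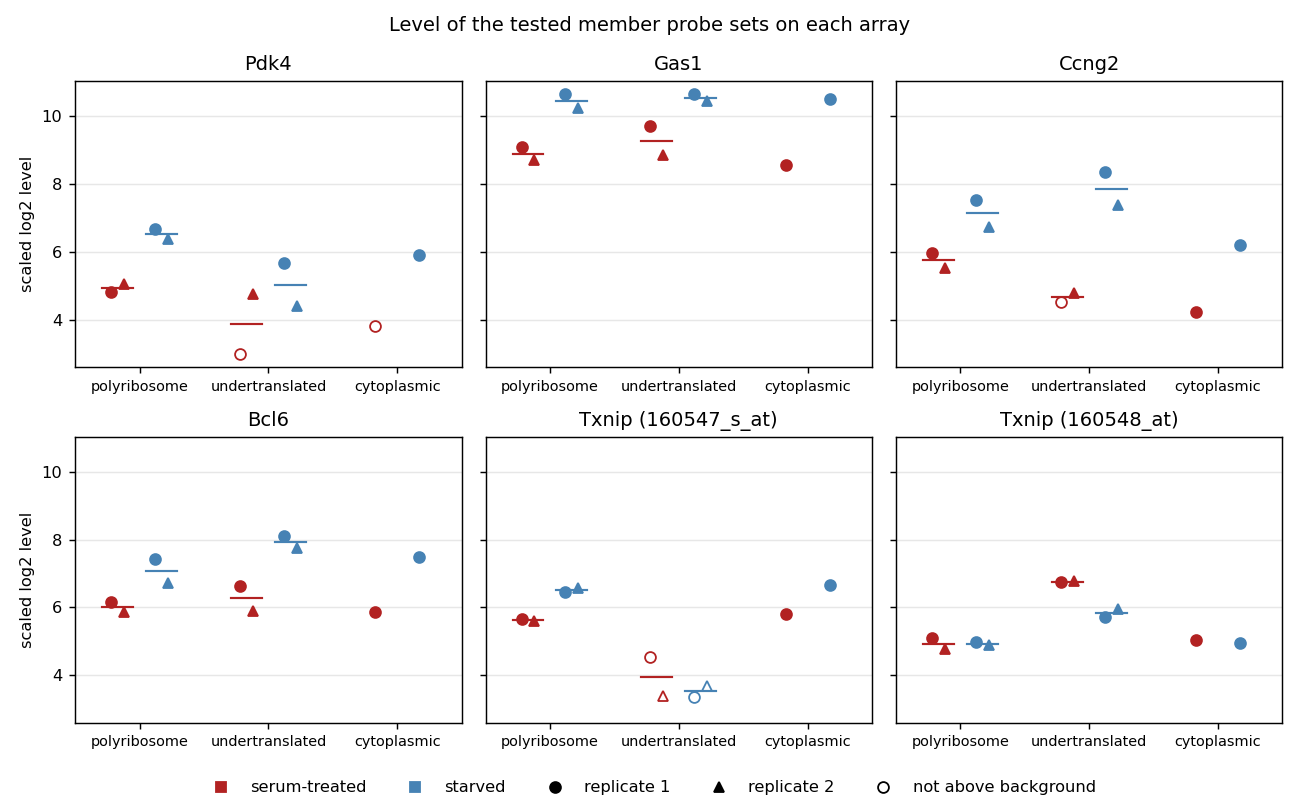
Scaled log2 level (vertical axis, log scale) of each tested member probe set on each of the 10 arrays, by RNA pool, with serum-treated arrays in red and starved arrays in blue. Circles are replicate 1, triangles replicate 2, open symbols values not above background, and short bars the mean of 2 arrays; Gas1, Ccng2 and Bcl6 are lower in red in all pools, Pdk4 and Txnip 160547_s_at are lower in red in polyribosome and cytoplasmic RNA but overlap in undertranslated RNA, and Txnip 160548_at is level in polyribosome and cytoplasmic RNA.

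Counted without a test, 5 of the 6 tested member probe sets were lower in serum-treated than in starved arrays with no overlap in both the polyribosome and the cytoplasmic pool, against 11.8% of all tested probe sets. In all 3 pools 3 member probe sets (Gas1, Ccng2 and Bcl6) were lower with no overlap, against 4.47% of all tested probe sets. The members were chosen with earlier results of these data known, so these counts are not evidence about such genes in general. In the cytoplasmic pool no overlap means 1 array against 1. The 2 polyribosome pairs and the cytoplasmic pair gave similar values. The pair differences on the scaled log2 scale were -1.86, -1.31 and -2.09 for Pdk4, -1.58, -1.54 and -1.96 for Gas1, and -1.57, -1.20 and -1.96 for Ccng2. The cytoplasmic difference was the largest in size on this scale for each of these genes, and also for Bcl6 (-1.27, -0.85 and -1.62), but rests on 1 array per state and was not tested. As deposited, the log2 difference of Pdk4 was -2.55 in cytoplasmic RNA and -2.66 in polyribosome replicate 1. Its serum-treated cytoplasmic value was not above background. Leaving out either cytoplasmic array left 5 probe sets called and no member among them, at nearly the same size (Pdk4 -1.59, Gas1 -1.56, Ccng2 -1.39 and Bcl6 -1.06). Gas1 also missed the threshold without serum-treated polyribosome replicate 2 (adjusted p = 0.0693), and Ccng2 without it (0.145) or without starved polyribosome replicate 1 (0.12). With the replicate block 149 probe sets were called, 98 higher and 51 lower.

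**Figure D2:**
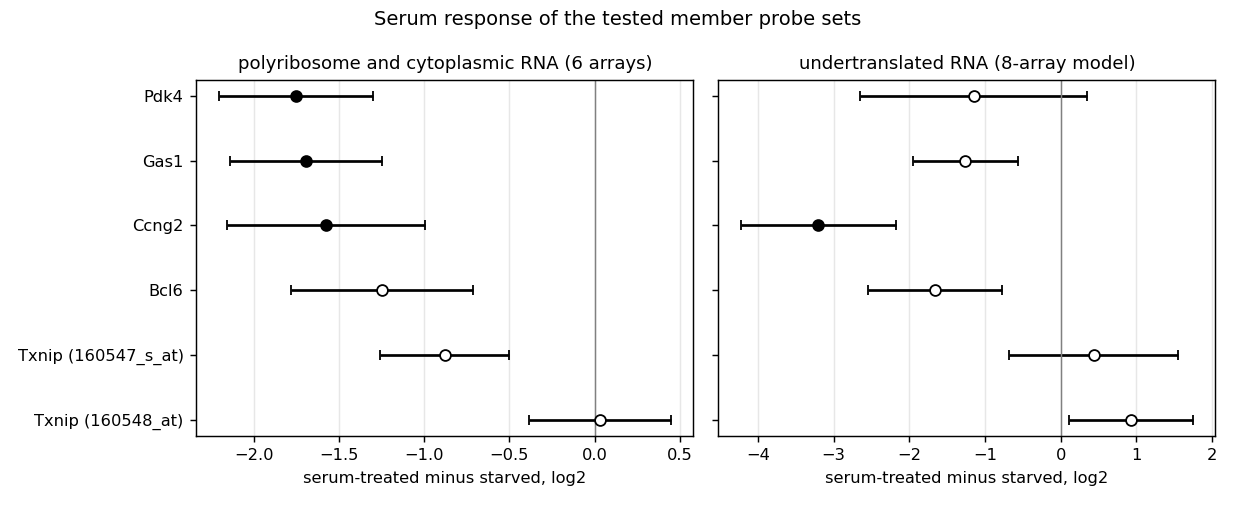
Serum-treated minus starved difference on the log2 scale (horizontal axis) for the tested member probe sets, with 95% intervals from limma; the left panel is polyribosome and cytoplasmic RNA and the right panel undertranslated RNA, on different horizontal ranges. Filled points have an adjusted p under 0.05: Pdk4, Gas1 and Ccng2 at the left, and Ccng2 alone at the right, where the intervals are wider.

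In undertranslated RNA, Ccng2 was the member that passed the test, and Bcl6 and Gas1 were lower without passing. The level of Ccng2 was 9.22-fold lower after serum on the quantile normalized scale, with serum-treated values at the background. The 8 gradient arrays were fitted as 4 group means with 1 shared spread, and since undertranslated replicates varied more than polyribosome ones, p-values for undertranslated RNA are too small. Of 9316 probe sets, 27 were higher after serum (0.29%) and 73 lower (0.784%). With the replicate block 52 were called, Ccng2 among them, while with array weights or with the undertranslated arrays alone no probe set passed in limma (1762 had an unadjusted p under 0.05 in the shared fit).

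Ccng2 had intensities of 6.1 and 10.0 in serum-treated undertranslated RNA, against 80.9 and 51.5 in starved undertranslated RNA. The value of 6.1 was not above that array's background of 7.1, and 10.0 was just above a background of 9.6. The size of the fall is therefore uncertain, although the groups did not overlap. Ccng2 fell by 3.20 on the log2 scale (SE 0.45, limma adjusted p = 0.0338). The difference was -2.82 as deposited and -2.59 with median centring. The call was lost with array weights (adjusted p = 0.253), with the undertranslated arrays alone (0.421) and without either starved undertranslated replicate (0.106 without replicate 1 and 0.102 without replicate 2). It was also lost without any 1 polyribosome array (0.127 to 0.137), where the difference itself stayed at -3.20.

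Gas1 had 91.8 and 102.3 in serum-treated undertranslated RNA, against 623.1 and 653.2 in starved undertranslated RNA. As deposited, the serum-treated intensity was 14.7% and 15.7% of the starved one. After quantile normalization the difference was -1.26 (SE 0.31, limma adjusted p = 0.0907), where median intensities were 5.7 and 8.0 on serum-treated and 7.6 and 8.8 on starved undertranslated arrays. Bcl6 had 15.8 and 17.0 in serum-treated undertranslated RNA, against 66.8 and 65.2 in starved undertranslated RNA, a difference of -1.66 (SE 0.39, limma adjusted p = 0.0831). Both genes were lower in each pair, and their groups did not overlap.

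Pdk4 gave no uniform picture in undertranslated RNA. It had 2.2 (not above background) and 9.9 after serum, against 15.5 and 8.9 in starved cells, so replicate 1 was lower after serum and replicate 2 was not, and the groups overlapped (-1.15, SE 0.66, limma adjusted p = 0.361). Txnip 160547_s_at was not above background on any of the 4 undertranslated arrays. Txnip 160548_at had 16.6 and 27.1 in serum-treated undertranslated RNA and 15.9 and 21.3 in starved undertranslated RNA. Its scaled difference was 0.93 (SE 0.36, limma adjusted p = 0.224), the opposite sign to the other detected members. Under the other scalings it was smaller (0.19 as deposited, 0.24 with hybridization control scaling and 0.42 with median centring). The actin 3′ to 5′ signal ratio, a sign of RNA quality, was 23.56 and 33.87 on serum-treated undertranslated arrays and 137.33 and 61.36 on starved ones. The Gapdh ratio was 3.7 and 4.53 on serum-treated undertranslated arrays and 5.64 and 6.81 on starved ones. Across pools these ratios differed in order, since actin was highest on undertranslated arrays and Gapdh was highest on cytoplasmic arrays (28.39 and 47.03). The part of RNA quality in these values was not tested.

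Between the gradient parts, the members did not share a direction. Txnip 160547_s_at was higher in polyribosome RNA, Txnip 160548_at was lower there, Pdk4 was higher at the edge of the threshold, and Gas1, Bcl6 and Ccng2 did not pass. This comparison asks which mRNAs carry several ribosomes, in 4 polyribosome against 4 undertranslated arrays. Most probe sets passed, with 2673 higher (28.7%) and 2379 lower (25.5%) in polyribosome RNA, so the 2 higher and 1 lower of 6 member probe sets are near the background. Quantile normalization makes these differences relative to other probe sets. As deposited, polyribosome arrays were brighter throughout, with a median difference of 3.02 over all probe sets, 8558 higher and 37 lower. Median centring gave 4240 higher and 2107 lower, and scaling by 9 hybridization controls gave 8857 higher and 29 lower.

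Txnip 160547_s_at averaged a scaled level of 6.07 in polyribosome RNA and 3.74 in undertranslated RNA, where all 4 arrays were below background. Its level was therefore at least 3.01-fold higher in polyribosome RNA (limma adjusted p = 0.000783), a bound that holds within this scaling. Over all probe sets the median ratio of deposited polyribosome over undertranslated intensity was 8.52 and 5.65 in serum-treated cells and 6.94 and 4.89 in starved cells. Txnip 160548_at averaged 4.93 in polyribosome RNA and 6.30 in undertranslated RNA, a fall of 1.36 relative to other probe sets (SE 0.26, limma adjusted p = 0.00251). The deposited ratios of Txnip 160548_at were 5.29 and 2.34 in serum-treated cells and 5.94 and 3.31 in starved cells. Each was under the median ratio of that pair. As deposited, where polyribosome arrays were brighter throughout, the difference had the opposite sign (1.90).

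Pdk4 was higher in polyribosome RNA by 1.28 (SE 0.46, limma adjusted p = 0.0451). With the replicate block it did not pass (adjusted p = 0.0584). Its ratio of deposited intensities was 30.9 and 8.25 in serum-treated cells and 27.6 and 28.9 in starved cells. The 30.9 rests on an undertranslated value that was not above background, and the other ratios were above the median ratio of their pair. Gas1 differed by -0.24 (95% interval -0.73 to 0.25), Bcl6 by -0.56 (-1.19 to 0.07) and Ccng2 by 0.18 (-0.54 to 0.91), none past the threshold. Under median centring, where the median of all probe sets was 0.55, Gas1 and Bcl6 turned to 1.05 and 0.71, Ccng2 had 1.08, and all were called higher. Ccng2 was also called higher as deposited (3.55) and with hybridization control scaling (3.86).

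**Figure D3:**
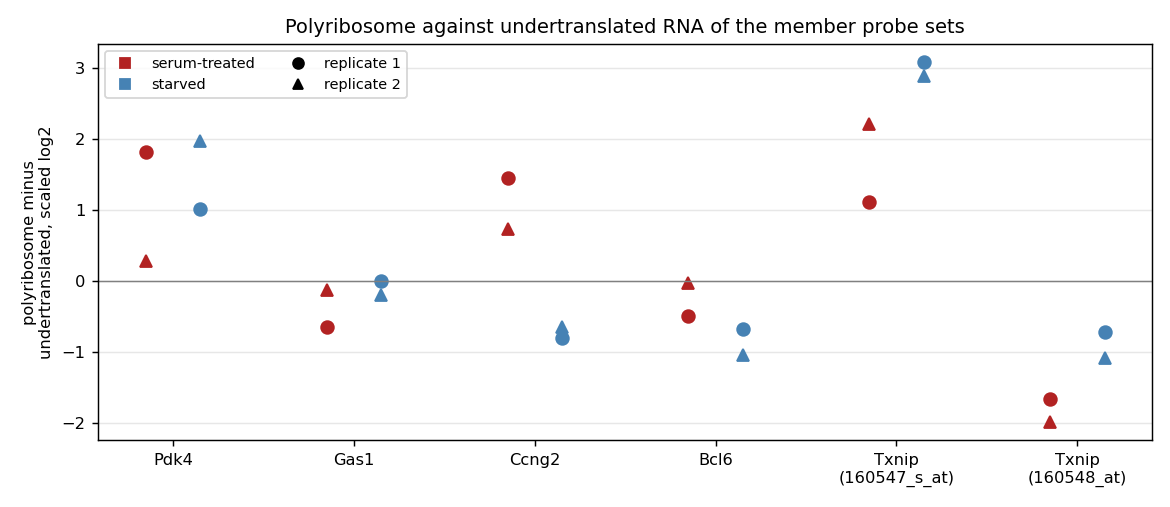
Polyribosome minus undertranslated scaled log2 level (vertical axis) for each tested member probe set, 1 point per replicate number, serum-treated in red and starved in blue. Ccng2 lies above 0 in both serum-treated pairs and below 0 in both starved pairs, and the Txnip probe sets lie on opposite sides of 0.

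Whether serum shifted the share of an mRNA found on polyribosomes was asked by the interaction of serum state and gradient part. No probe set passed (0.0% of 9316, smallest adjusted p = 0.442 in limma), while 720 had an unadjusted p under 0.05. Ccng2 had a polyribosome minus undertranslated difference of 1.45 and 0.73 in serum-treated cells, against -0.80 and -0.65 in starved cells. Both serum-treated pairs were thus above 0 and both starved pairs below it, a pattern that 2.77% of tested probe sets showed. The shift of 1.82 (SE 0.63, unadjusted p = 0.0196, limma adjusted p = 0.57) did not pass. As deposited, the Ccng2 ratio was 30.7 and 12.4 in serum-treated cells and 10.7 and 6.74 in starved cells, above the median ratio of all probe sets in each pair, so the values below 0 in starved cells were not seen relative to those medians. In serum-treated replicate 1 the undertranslated value was not above background, and in replicate 2 it was just above (10.0 against 9.6).

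The shifts of the other tested member probe sets did not pass either, with adjusted p from 0.699 to 0.901. Txnip 160547_s_at had the next largest size at -1.32 (SE 0.69), with undertranslated values below background. Gas1 shifted by -0.30 (95% interval -1.28 to 0.68) and turned positive under the other scalings (1.44 as deposited, 1.32 with median centring, 1.05 scaled by hybridization controls). Intervals of this width do not show that the members' loading stayed the same.

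Over the 6 groups, the order of levels differed by gene. The order across pools is that of the quantile normalized scale and differed as deposited, where Ccng2 had a mean intensity of 604 in starved polyribosome RNA and 66.2 in starved undertranslated RNA. For Gas1 the serum-treated groups lay at scaled levels of 8.55 (cytoplasmic, 1 array), 8.89 ± 0.26 (polyribosome, SD, n = 2) and 9.28 ± 0.62 (undertranslated, SD, n = 2), below the starved groups at 10.45 ± 0.28 (polyribosome), 10.51 (cytoplasmic) and 10.54 ± 0.14 (undertranslated). The 3 starved groups of Gas1 did not differ beyond their spread. Bcl6 had the same split, with 5.86, 6.01 ± 0.20 and 6.26 ± 0.53 in serum-treated cytoplasmic, polyribosome and undertranslated RNA, below 7.07 ± 0.50, 7.48 and 7.92 ± 0.24 in starved polyribosome, cytoplasmic and undertranslated RNA. Ccng2 was lowest in serum-treated cytoplasmic and undertranslated RNA (4.22 and 4.66 ± 0.20), then serum-treated polyribosome RNA (5.75 ± 0.31), and highest in starved undertranslated RNA (7.86 ± 0.68), which overlapped starved polyribosome RNA (7.13 ± 0.57). Pdk4 was lowest in serum-treated cytoplasmic and undertranslated RNA (3.81 and 3.88 ± 1.26) and highest in starved polyribosome RNA (6.53 ± 0.22). Txnip 160547_s_at had 5.80 and 5.63 ± 0.05 in serum-treated cytoplasmic and polyribosome RNA, below 6.66 and 6.52 ± 0.08 in the starved groups of these pools, which were its highest. Levels of different probe sets cannot be set against each other on these arrays.

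Gas1 and Bcl6 followed each other most closely. Among tested probe sets with 1 symbol, Bcl6 had the highest Pearson correlation with Gas1 (r = 0.943 over 10 arrays), and Gas1 the highest with Bcl6. Next for both were Snai2 (r = 0.933 with Gas1 and 0.938 with Bcl6), a zinc finger repressor of mesenchymal cells, and Rtl6 (0.906 and 0.924). Ccng2 was closest to Rin2 (0.978), Nck1 (0.96) and Cyp1b1 (0.944), and its correlation with Bcl6 was 0.839 and with Gas1 0.812. Pdk4 was closest to Ssbp2 (0.92), Dlat (0.897), which encodes the E2 subunit of the complex that Pdk4 acts on, and Pag1 (0.894). Txnip 160548_at was closest to Rgs14 (0.996), Kcnj6 (0.992) and Ryr3 (0.99). These are descriptions of 10 arrays that share pools, depth and scaling. Each closest gene was picked as the highest among all tested probe sets with 1 symbol.

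Among 8 lists of related genes, no gene passed the test of the serum response in polyribosome and cytoplasmic RNA or in undertranslated RNA. The FoxO and PI3K-Akt list had 11 tested genes with a median difference of 0.08 against -0.01 for all probe sets. Foxo3, a FoxO factor itself, had -0.50 (limma adjusted p = 0.322) and Foxo4 had 0.22 (0.746). Pik3ca, a catalytic subunit of PI3K, had -1.20 (0.112), furthest from 0 in this list and close in size to the -1.25 of Bcl6. Of 16 tested other FoxO targets 8 were below 0, with a median of -0.01. Sesn1, a stress-induced inhibitor of mTORC1 signalling, was the furthest of these from 0 at -0.92 (limma adjusted p = 0.0934), and Cited2, a transcriptional co-regulator, had -0.75 (0.294). Cdkn1a, the p21 inhibitor, had 0.21 (0.837).

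Other growth arrest and antiproliferative genes had 15 of 22 below 0, with a median of -0.13. Cavin2, a caveolar protein also known as serum deprivation response, had -1.01 (limma adjusted p = 0.169), and Gas2, a cytoskeletal protein of the arrest-specific series, had -0.60 (0.24). CDK inhibitors and partners of p27 had 15 of 20 below 0, with a median of -0.15. Among them the CDK4 inhibitor Cdkn2b had -0.89 (0.156). All 6 tested genes of pyruvate dehydrogenase and its kinases were below 0, between -0.33 (Pdk3) and -0.05 (Pdhb), with a median of -0.21. Pdk1 (-0.18) and Pdk3, the sister kinases, were far from the -1.75 of Pdk4, although the difference between them was not tested. In undertranslated RNA the medians were -1.0 for the pyruvate dehydrogenase list (6 of 6 below 0) and -0.58 for the CDK list (15 of 20 below 0), against -0.04 for all probe sets, with no gene of either list called. These were the lowest list medians there. The thioredoxin (0.36), Hedgehog (0.32) and Bcl6 corepressor (0.38) lists lay above 0, and the remaining lists between -0.265 and -0.05. In polyribosome and cytoplasmic RNA the thioredoxin and arrestin-domain list had a median of 0.14 over 8 genes, the Hedgehog list 0.0 over 8 and the Bcl6 corepressor list 0.29 over 10.

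**Figure D4:**
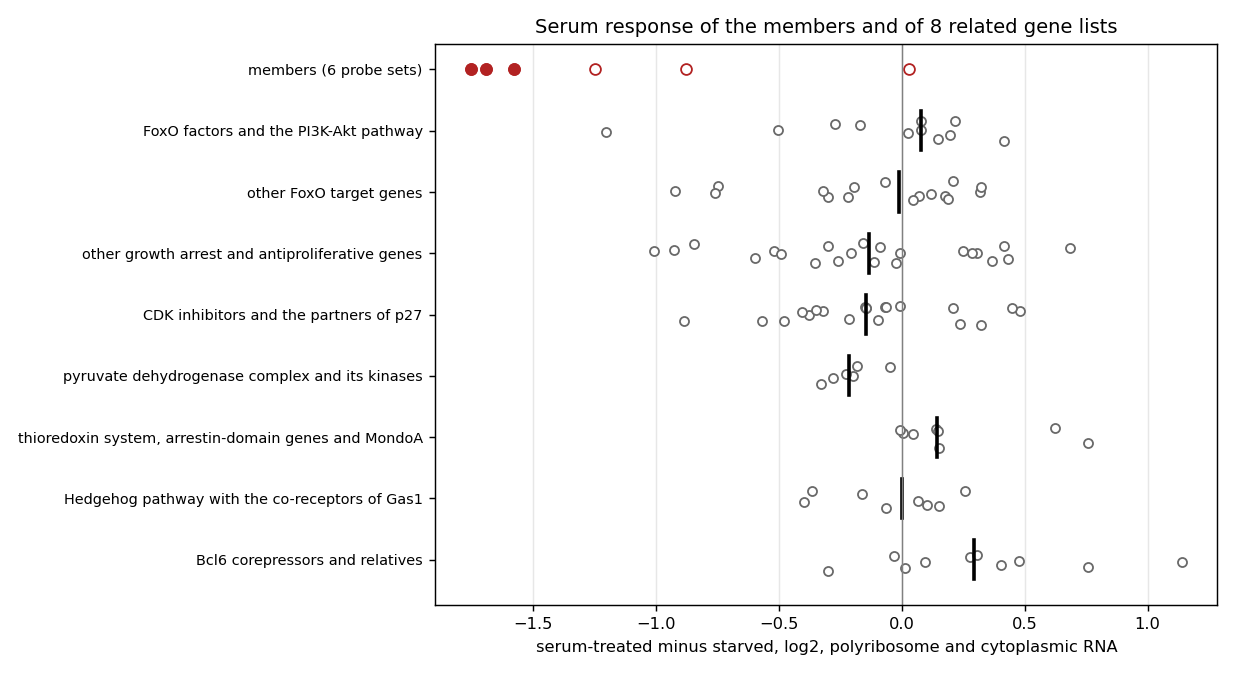
Serum-treated minus starved difference on the log2 scale in polyribosome and cytoplasmic RNA (horizontal axis) for the 6 tested member probe sets (red) and for the genes of 8 lists (grey), 1 point per probe set, with black bars at list medians. Filled points have an adjusted p under 0.05; these are Pdk4, Gas1 and Ccng2, and no list gene.

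In polyribosome against undertranslated RNA each list held called genes. Over all tested probe sets 28.7% were called higher and 25.5% lower, and the list counts were not tested against these shares. Values are relative to other probe sets. The pyruvate dehydrogenase list had 4 of 6 genes higher in polyribosome RNA and none lower. Its kinases Pdk3 and Pdk1 were higher by 2.92 (SE 0.30, limma adjusted p = 0.000146) and 1.86 (SE 0.26, 0.000548), and the subunit Pdhb by 1.98 (SE 0.37, 0.00262), beside 1.28 for Pdk4. Pdk3 was above background on 2 of 4 undertranslated arrays and Pdk1 and Pdhb on 3, so these sizes rest partly on undetected values. CDK inhibitors and partners of p27 had 9 of 20 higher and 3 lower. Those with the smallest p were the CDK inhibitor Cdkn1c at 2.81, the COP9 signalosome subunit Cops5 at 2.02 and cyclin D1 (Ccnd1) at 1.94. FoxO and PI3K-Akt genes had 3 of 11 higher and 2 lower. Akt1 and Pdgfrb, the kinase and a growth factor receptor above it, were not above background on any undertranslated array and were at least 3.83-fold and at least 3.02-fold higher in polyribosome RNA. Foxo4 was lower by 2.25, but turned to 1.70 as deposited.

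Other growth arrest and antiproliferative genes had 7 of 22 higher and 4 lower. Gas6 and Gas5, among those with the smallest p, went in opposite directions. Gas6, a secreted ligand of the Axl family of receptors, had intensities of 1942.3 and 2263.3 in serum-treated and 2526.1 and 2309.0 in starved polyribosome RNA, against 6.1 and 13.5 in serum-treated and 8.7 and 13.7 in starved undertranslated RNA. Its difference of 4.25 (SE 0.27, limma adjusted p = 2.36e-05) stayed above 0 as deposited (7.61) and with median centring (5.14). Gas6 was above background on 3 of 4 undertranslated arrays. Gas5, a noncoding host of small nucleolar RNAs, had 4115.7 and 3601.3 in serum-treated and 4642.8 and 3336.9 in starved polyribosome RNA, against 2965.4 and 5149.7 in serum-treated and 5090.9 and 6424.7 in starved undertranslated RNA. Gas5 was lower in polyribosome RNA by 2.42 relative to other probe sets (SE 0.11, limma adjusted p = 5.43e-06), and by 0.28 as deposited. Gas1 lay between these at -0.24. Smo, the Hedgehog signal transducer, was at least 3.16-fold higher in polyribosome RNA, and the ligand genes Dhh (-1.55) and Ihh (-1.32) were lower. Both ligand genes were dim on undertranslated arrays (20.0 to 24.6 for Dhh and 8.9 to 19.2 for Ihh), where background was 6.7 to 9.6. Among Bcl6 partners the deacetylase Hdac1 was higher by 1.98, while Stat5a (-1.62) and Hdac7 (-1.12) were lower. Hdac1 was above background on 1 of 4 undertranslated arrays, so its size rests mostly on undetected values. Of the remaining lists, Txn1 (thioredoxin) was lower by 0.60, and other FoxO targets had 5 of 16 higher and 4 lower. Those with the smallest p were Cat, Cited2 and G6pc at -2.08, -2.25 and -2.33, while Lpl (2.48), Map1lc3b (1.80), Cdkn1a (1.38), Gabarapl1 (1.36) and Gadd45a (1.09) were higher. As deposited all of the lower genes named here except Gas5 turned positive (1.04 to 2.95). With median centring Hdac7 (0.48) and Txn1 (0.37) turned positive, and the other lower genes stayed below 0.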

How the data were processed

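The deposited file gives intensity on a linear scale for 12488 probe sets, 66 of them controls, on 10 arrays. Per the labels' protocols, RNA was copied and amplified linearly, biotin-labelled and run on Affymetrix arrays. How probes were summarised and scaled is not given in the sources used here. A single gene symbol was annotated for 10833 of 12422 ordinary probe sets, several for 396 and none for 1193. Genes were named from single-symbol probe sets, 10817 of which matched the reference gene table.

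Analysis used log2(value + 1.5), where 1.5 is the 10th percentile of all values. This shrinks fold changes of dim probe sets. Ordinary probe sets were then quantile normalized across the 10 arrays, and those with a mean level in the lowest 25% were dropped, leaving 9316. Models were fitted with limma 3.58.1 in R 4.3.3 (lmFit, eBayes with a trend, two-sided tests, Benjamini-Hochberg over the 9316, threshold 0.05). The serum response in polyribosome and cytoplasmic RNA took 6 arrays with pool as a term (3 residual degrees of freedom). The other comparisons took the 8 gradient arrays as 4 group means (4 residual degrees of freedom). Precision is limited by the number of arrays. The fits were tested on simulated data, where the estimated differences followed the true ones, but the fit for undertranslated RNA called more unchanged than changed probe sets when its arrays had their own wider spread. Where a probe set is below background on a whole side, its fold is a bound, taken against each array's lowest detected level or the probe set's own level if higher.

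The members and the gene lists were chosen with earlier results of these data known. Named are all member probe sets, up to 3 called genes per list by smallest p (with 1 probe set per gene, the brightest on average), and the 3 best-correlated genes of each member's main probe set. Pik3ca, Sesn1, Foxo3, Cavin2, Gas2, Cdkn2b and Cdkn1a, and the serum values of Cited2, Foxo4, Pdk1, Pdk3 and Pdhb, were picked after their values were seen, as genes that did not pass. So were the 5 higher FoxO targets of the gradient comparison.

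Replicate 2 is the thiouridine-labelled culture in each gradient group, per the labels, so replicate numbers pair arrays by treatment. Same-numbered arrays deviated together at r = 0.275 in the polyribosome groups and 0.0171 to 0.0535 in other pairs of groups. Alternative settings changed the scaling (values as deposited, median centring, 9 hybridization controls), the pseudocount (1 or 4.2), the filter (none, or the 50th percentile), the variance model (no trend, or array weights), the replicate block, and the arrays used (all 10, a single pool, or 1 left out).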

Additional observations from a re-analysis of the deposited data

Results flagged for a closer look

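Ccng2 changed sign in polyribosome loading between serum states on the quantile normalized scale, as 258 of 9316 tested probe sets did (2.77%). Its polyribosome minus undertranslated difference lay above 0 in both serum-treated pairs (1.45 and 0.73) and below 0 in both starved pairs (-0.80 and -0.65). As deposited its ratio was 30.7 and 12.4 in serum-treated cells and 10.7 and 6.74 in starved cells, above the medians of all probe sets in every pair (8.52 and 5.65 serum-treated, 6.94 and 4.89 starved), so the sign change was not seen relative to those medians. The undertranslated value of serum-treated replicate 1 was not above background, and that of replicate 2 was just above it (10.0 against 9.6). The shift of 1.82 on the log2 scale (SE 0.63) did not pass the interaction test in limma (unadjusted p = 0.0196, adjusted p = 0.57), and over the 19 alternatives it lay between 0.60 and 2.30 with adjusted p from 0.098 to 0.974.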

How the results depend on the processing

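The serum-treated minus starved differences of Pdk4, Gas1, Ccng2, Bcl6 and Txnip 160547_s_at in polyribosome and cytoplasmic RNA were below 0 under all 18 alternatives run, between -2.51 and -1.59 for Pdk4, -1.85 and -1.40 for Gas1, -2.28 and -1.39 for Ccng2, -1.89 and -1.06 for Bcl6 and -1.47 and -0.84 for Txnip 160547_s_at. Calls moved more. Pdk4 was called under 14 of the 18 (adjusted p 0.00223 to 0.801), Gas1 under 13 (0.00405 to 0.178), Ccng2 under 10 (0.00423 to 0.464), Bcl6 under 7 (0.00936 to 0.561) and Txnip 160547_s_at under 5 (0.0307 to 1.0). Over all genes 83 probe sets were called, 62 higher and 21 lower. As deposited 47 were higher and 28 lower (median of all probe sets -0.11), and with hybridization control scaling 19 and 45 (median -0.39). Without a filter 24 were called, without a variance trend 19, with the replicate block 149, with all 10 arrays 0 and with polyribosome arrays alone 5. Leaving out 1 array gave 5 to 118, of which 5 without either cytoplasmic array, 20 without starved polyribosome replicate 1, 49 and 13 without serum-treated polyribosome replicates 1 and 2. Member probe sets called numbered 5 in place of 3 under all 3 other scalings, the 50th percentile filter and the replicate block. They numbered 0 with all 10 arrays and with polyribosome arrays alone, and 0 to 4 without 1 array. Fits that leave a cytoplasmic state without an array rest on polyribosome arrays alone. Txnip 160548_at, called under no alternative, turned to -0.076 as deposited, -0.007 with median centring and -0.36 on the hybridization control scale, and lay between -0.05 and 0.13 with 1 array left out.

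In undertranslated RNA 100 probe sets were called, 27 higher and 73 lower, against 0 and 22 as deposited, 7 and 61 with median centring, 12 (all lower) with hybridization control scaling, 0 with array weights, 52 with the replicate block and 0 with undertranslated arrays alone. Leaving out 1 array gave 0 to 2302, with 435 and 2302 without serum-treated undertranslated replicates 1 and 2 and 0 without any other array. The members called were 2 as deposited and with median centring (Gas1 beside Ccng2), 0 with array weights and undertranslated arrays alone, and 0 to 3 without 1 array. Txnip 160547_s_at turned to -0.14 without serum-treated undertranslated replicate 1.

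For polyribosome against undertranslated RNA, 5052 were called, 8595 as deposited and 8886 with hybridization control scaling. The members called were 6 under each of these, 5 with median centring and 2 to 5 without 1 array. Turned values were 3.18, 0.71 and 3.49 for Bcl6 and 3.51, 1.05 and 3.82 for Gas1 (as deposited, median centring, hybridization control scaling), 1.90 and 2.21 for Txnip 160548_at (as deposited, hybridization control scaling), while Ccng2 lay between -0.057 and 0.42 with 1 array left out, below 0 without starved undertranslated replicate 2 or starved polyribosome replicate 1. The shift of loading called 0 probe sets in limma, with 0 to 902 without 1 array (902 without serum-treated undertranslated replicate 2, where 1 member, Txnip 160547_s_at, passed at an adjusted p of 0.0431, and 1 without serum-treated undertranslated replicate 1). Gas1 turned to 1.44, 1.32 and 1.05 under the 3 scalings. With 1 array left out Gas1 lay between -0.74 and 0.14 (above 0 without serum-treated undertranslated replicate 1) and Pdk4 between -1.33 and 0.45 (above 0 without replicate 2 of either undertranslated group). The cause was not tested. Dim undertranslated arrays, with 43.4% to 53.5% of probe sets above background, limit what can be read there.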
